A study of Sus scrofa with 6 samples.

Results

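Detoxification and xenobiotic metabolism enzymes were represented in the ear tissue of Sutai piglets by 7 genes, *GSTA1*, *GSTA4*, *CYP2D6*, *CYP2J2*, *CES3*, *ALDH1A1* and *MT3*. Of these, *MT3* codes for a metal-binding protein rather than an enzyme and is counted with them. Each gene had 1 Ensembl transcript, out of 22204 transcripts with a read in any library. The members were taken by name from the study's list of genes that differed between the genotypes on FPKM in Cuffdiff, so the contrast of genotypes in these same piglets had chosen them and is given here as a description. All 7 passed the filter on low counts, as did 16645 transcripts in total. Ear tissue of 3 piglets of genotype QQ (6185STQ, 6415 and 6434), which are homozygous for a copy number variation of *MSRB3* on chromosome 5 and are named CNV/CNV here, was compared with that of 3 piglets of genotype qq (6161ST, 6165ST and 6407), named wild-type. Both groups were new born by the labels and of the breed Sutai, a Chinese line from crosses of Duroc with Taihu pigs. Each piglet gave 1 library of polyadenylated RNA from ear tissue, a bulk sample in which cell types are mixed. Levels are given as RPKM, a read number divided by transcript length and library size. A negative log2 fold change stands for a lower level in CNV/CNV piglets.

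Detoxification enzymes alter foreign and endogenous chemicals in steps. Cytochromes P450 and flavin monooxygenases add oxygen, carboxylesterases split esters and aldehyde dehydrogenases turn aldehydes into acids. Transferases then attach glutathione, sulphate or an amino acid, which makes the product easier to excrete, and metallothioneins bind metal ions through their cysteines. The enzymes among these proteins are best known from liver. In skin several of the enzymes are found in the epidermis, the hair follicle and the sebaceous gland, where they also handle fatty acids, retinoids and sterols.

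The names of the members were compared with RefSeq genes at the positions that the study's list gives on Sscrofa 11.1. For 4 of the 7, *GSTA1*, *CES3*, *ALDH1A1* and *MT3*, a RefSeq gene of the same symbol lay at that position. *CES3* (ENSSSCT00000023639) was placed on chromosome 6 from 27627759 to 27637508, *ALDH1A1* (ENSSSCT00000027607) on chromosome 1 from 226161373 to 226217339, and *MT3* (ENSSSCT00000027420) on chromosome 6 from 18634261 to 18636131. *GSTA1* (ENSSSCT00000002914) was placed on chromosome 7 from 46538613 to 46588218, a span that also covers the RefSeq gene LOC100526118. *GSTA4* (ENSSSCT00000024099) was placed from 46606301 to 46631020 on the same chromosome, where RefSeq has LOC100510917, whereas the RefSeq gene with the symbol *GSTA4* starts 4883 bases further on, at 46635903. The transcript named *CYP2D6* (ENSSSCT00000000051, chromosome 5 from 6538907 to 6543746) lay at RefSeq *CYP2D25*, the pig gene of a cytochrome P450 known to hydroxylate vitamin D. *CYP2D6* was the only member on the chromosome of *MSRB3*, 23.2 Mb away from it. *CYP2J2* (ENSSSCT00000004233) was given a span of 257924 bases on chromosome 6 (152321412 to 152579335), in which RefSeq has 5 protein-coding genes and 1 pseudogene, among them *CYP2J34* and none with the symbol *CYP2J2*. The symbols *GSTA4*, *CYP2D6* and *CYP2J2* therefore stand here for these transcripts as the list names them.

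The libraries held 39.3 M to 44.2 M (M, mega) assigned reads. In lists of cell type markers, the libraries of the wild-type piglets 6161ST and 6165ST stood apart from the other 4. The genes of all marker lists used here were taken from the study's list, which rests on the contrast of genotypes in these same piglets. How these markers differ between libraries is therefore in part set by that choice. The summed level of 9 cartilage genes, none of them at 0, was 75.2 and 11.3 RPKM in these 2 libraries, 683 RPKM in the wild-type piglet 6407 and 481 to 1030 RPKM in the CNV/CNV piglets. In contrast, the summed level of 7 genes of gland and simple epithelium was 615 and 494 RPKM in 6161ST and 6165ST, 133 RPKM in 6407 and 77.3 to 364 RPKM in the CNV/CNV piglets. RNA of both sets of marker genes was thus detected in every library, at unequal levels. In bulk tissue, fewer cells of a type cannot be told apart from less RNA per cell. Values without 6161ST and 6165ST are given below beside those of all 6 libraries; they compare 6407 alone with the 3 CNV/CNV piglets, and 6407 is assumed there to vary like them.

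*GSTA1*, a glutathione transferase of the alpha class, had the highest mean of the 7 genes in wild-type piglets. Its level was 95.1, 39.7 and 12.2 RPKM in 6161ST, 6165ST and 6407, and 8.60, 4.83 and 7.48 RPKM in 6185STQ, 6415 and 6434. The groups did not overlap, but the lowest wild-type piglet, 6407, was 1.42 times the highest CNV/CNV piglet, while the wild-type piglets differed 7.78-fold among themselves. Wild-type piglets had a mean of 49.0 ± 42.2 RPKM (SD, n = 3) and CNV/CNV piglets of 6.97 ± 1.94 RPKM (SD, n = 3). In edgeR the log2 fold change came to -2.66 (standard error 0.63), to -1.76 without 6161ST and to -0.76 without both 6161ST and 6165ST.

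*GSTA4*, whose human namesake conjugates aldehydes from lipid peroxidation, had the same order of wild-type piglets at a lower level. It was at 14.0, 7.81 and 4.49 RPKM in 6161ST, 6165ST and 6407, and at 4.41, 1.77 and 2.40 RPKM in 6185STQ, 6415 and 6434. The wild-type piglet 6407 and the CNV/CNV piglet 6185STQ were thus nearly level, at 134 and 117 reads, and on the TMM-normalized log2 scale their order was turned (1.63 and 1.66). Its log2 fold change was -1.48 (standard error 0.47), -0.99 without 6161ST and -0.60 without both 6161ST and 6165ST.

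*CYP2D6*, which in humans oxidizes many drugs, was at a low level in all CNV/CNV piglets. It was at 6.0, 6.24 and 1.81 RPKM in 6161ST, 6165ST and 6407, and at 0.154, 0.820 and 0.897 RPKM in 6185STQ, 6415 and 6434. The groups did not overlap, and the lowest wild-type piglet was 2.02 times the highest CNV/CNV piglet. The value of 6185STQ rested on 10 reads (exact Poisson 95% interval 4.80 to 18.4, counting error only) that covered 44.8% of the transcript, against 59 and 63 reads in the other CNV/CNV piglets and 132 to 416 reads in wild-type piglets. For *CYP2D6* the log2 fold change was -2.75 (standard error 0.65), -2.30 without 6185STQ and -1.48 without both 6161ST and 6165ST.

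*CYP2J2*, whose human namesake forms epoxides of arachidonic acid, varied 55.8-fold from the lowest to the highest library. It had 6.58, 19.7 and 15.7 RPKM in 6161ST, 6165ST and 6407, and 0.353, 8.30 and 3.75 RPKM in 6185STQ, 6415 and 6434. The groups overlapped, since the CNV/CNV piglet 6415 was above the wild-type piglet 6161ST. As for *CYP2D6*, the lowest library was 6185STQ, with 21 reads (exact Poisson 95% interval 13.0 to 32.1, counting error only) over 42.8% of the transcript, where the next lowest library had 242 reads over 88.8%. The log2 fold change was -1.64 (standard error 0.85). It was -1.09 without 6185STQ and -2.63 without 6415, each a change of more than 1.5 times, and -1.87 without both 6161ST and 6165ST.

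*CES3*, a carboxylesterase gene, varied 2.42-fold from the lowest to the highest library. Its levels were 3.68, 3.09 and 3.84 RPKM in 6161ST, 6165ST and 6407, and 1.59, 1.89 and 1.59 RPKM in 6185STQ, 6415 and 6434. The groups did not overlap, and 6407 was the highest of all libraries rather than near the CNV/CNV level. The means were 3.53 ± 0.395 RPKM (SD, n = 3) and 1.69 ± 0.174 RPKM (SD, n = 3), from 127 to 345 reads per library. The log2 fold change was -0.94 (standard error 0.20), from -1.05 to -0.84 without any 1 library, and -1.13 without both 6161ST and 6165ST.

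*ALDH1A1*, which makes retinoic acid from retinaldehyde, was split within the wild-type group. It was at 59.1 and 54.3 RPKM in 6161ST and 6165ST but at 11.9 RPKM in 6407, below the CNV/CNV piglets with 14.1, 13.9 and 14.1 RPKM in 6185STQ, 6415 and 6434. The SD of log2 CPM (the counts after scaling for depth) among the CNV/CNV piglets was 0.02, lower than in all but 0.577% of the transcripts tested, and among the wild-type piglets it was 1.24. The log2 fold change of -1.42 (standard error 0.48) changed sign to 0.29 without both 6161ST and 6165ST.

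*MT3*, a metallothionein gene best known from brain, showed the same split. It was at 48.4 and 45.9 RPKM in 6161ST and 6165ST and at 15.6 RPKM in 6407, against 15.6, 22.5 and 26.4 RPKM in 6185STQ, 6415 and 6434. The wild-type piglet 6407 was thus level with the lowest CNV/CNV piglet. The log2 fold change was -0.62 (standard error 0.39). It was -0.38 without 6161ST and -0.98 without 6407, each a change of more than 1.5 times, and 0.51 without both 6161ST and 6165ST.

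**Figure D1:**
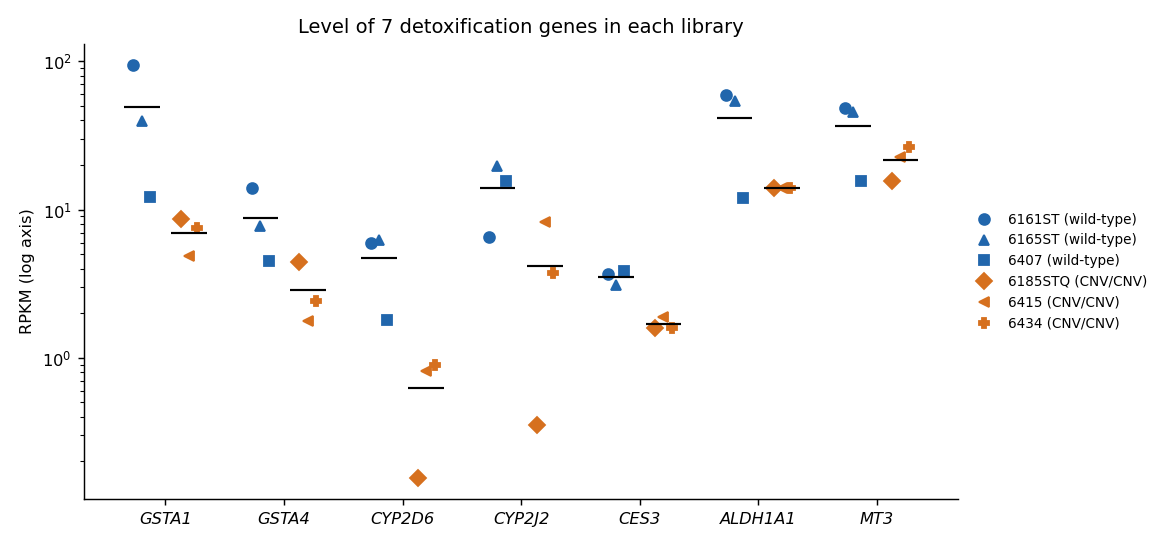
Levels of the 7 detoxification genes by library, as RPKM on a logarithmic axis. Symbols stand for piglets (blue for wild-type, orange for CNV/CNV), and bars for the arithmetic means of the groups (n = 3). For ALDH1A1 and MT3 the wild-type piglet 6407 (11.9 and 15.6 RPKM) lies at or below the CNV/CNV piglets, while for CES3 it is the highest library (3.84 RPKM), and 6185STQ lies far below the other libraries for CYP2D6 (0.154 RPKM) and CYP2J2 (0.353 RPKM).

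In the comparison of genotypes over all libraries, the fold change was below 0 for all 7 genes, with a median log2 fold change of -1.48, where 50.2% of all transcripts tested were below 0. The study had chosen the genes for this contrast, so neither the direction nor the count is evidence of its own. At an adjusted p under 0.05 in the quasi-likelihood test of edgeR, 0 of the 7 genes passed, with 0.00601% of all transcripts passing. At an unadjusted p under 0.05 in edgeR there were 5 of the 7, all lower in CNV/CNV piglets, as were 2.87% of all transcripts, and DESeq2 called 2 of the 7, *CYP2D6* and *CES3*, with 0.174% of all transcripts at its adjusted p under 0.05. On RPKM the groups did not overlap for 4 of the 7 genes, with lower values in CNV/CNV piglets, as for 12.1% of all transcripts. On the TMM-normalized scale the number was 3 of 7, as for 5.61% of all transcripts, since *GSTA4* no longer parted the groups. Without both 6161ST and 6165ST, no share of all transcripts below 0 is given, so the count of genes below 0 is a description. In that fit 5 of the 7 genes were below 0, with a median of -0.76, where that of all transcripts was 0.01. Those 5 were *GSTA1*, *GSTA4*, *CYP2D6*, *CYP2J2* and *CES3*, and of these *CYP2J2* and *CES3* had a larger fold change without the pair than with it.

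The other way to hold these libraries apart is by the letters ST in the names of 3 piglets, whose meaning is not given in the sources used here. Between the ST-named piglets, 6185STQ minus the mean of 6161ST and 6165ST was -2.67 for *GSTA1*, -1.08 for *GSTA4* and -0.92 for *CES3* on the log2 CPM scale. It was -4.92 for *CYP2D6*, -4.74 for *CYP2J2*, -1.84 for *ALDH1A1* and -1.43 for *MT3*. Between the other 3 piglets, the mean of 6415 and 6434 minus 6407 was -0.96, -1.04 and -1.08 for *GSTA1*, *GSTA4* and *CES3*. It was -1.0 and -1.43 for *CYP2D6* and *CYP2J2*, but 0.29 and 0.70 for *ALDH1A1* and *MT3*. The difference was therefore below 0 in both sets of piglets for 5 genes and changed sign for 2. The study had chosen the genes on these same piglets, so the sets are not separate evidence. No share of all transcripts is given beside these counts, and nothing is read from them. With 1 or 2 piglets per genotype in a set, the differences are values without a test.

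**Figure D2:**
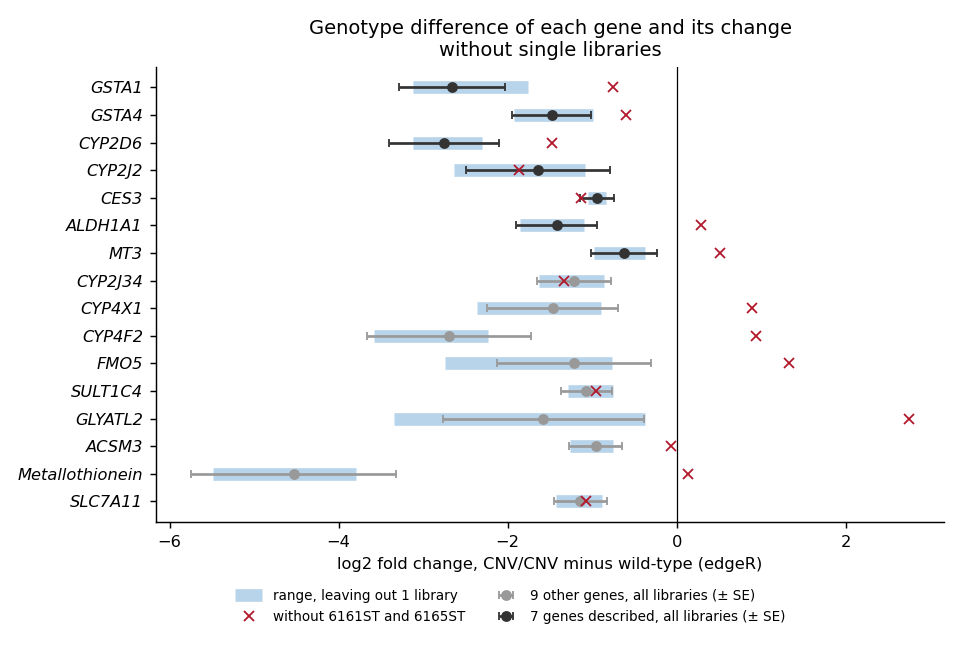
Log2 fold change of each gene from edgeR (points, with standard error), the range when 1 library is left out (pale bars) and the value without 6161ST and 6165ST (crosses), for the 7 genes described in black and 9 other detoxification genes in grey. The crosses of CES3 (-1.13) and CYP2J2 (-1.87) lie close to the points, those of ALDH1A1 (0.29) and MT3 (0.51) on the other side of 0.

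The order of the 7 genes by mean level differed between the genotypes, but the order also differed among the wild-type piglets. *GSTA1* was the highest of the 7 in 6161ST alone (95.1 RPKM). In 6165ST it was at 39.7 RPKM, below *ALDH1A1* (54.3 RPKM) and *MT3* (45.9 RPKM), and in 6407 *CYP2J2* (15.7 RPKM) was highest. By mean RPKM, which is scaled to transcript length, the wild-type order was *GSTA1*, *ALDH1A1*, *MT3*, *CYP2J2*, *GSTA4*, *CYP2D6* and *CES3*, from 49.0 down to 3.53 RPKM, and each neighbour in this order overlapped the next in range. In CNV/CNV piglets it was *MT3*, *ALDH1A1*, *GSTA1*, *CYP2J2*, *GSTA4*, *CES3* and *CYP2D6*, from 21.5 down to 0.624 RPKM. There the ranges of *MT3* and *ALDH1A1*, of *ALDH1A1* and *GSTA1*, and of *CES3* and *CYP2D6* did not overlap, while those of *GSTA1*, *CYP2J2*, *GSTA4* and *CES3* overlapped from neighbour to neighbour. Compared with all transcripts tested, the mean level over the 6 libraries was above that of 84.7% for *GSTA1*, 84.6% for *ALDH1A1* and 85.3% for *MT3*. It was above 61.3% for *CYP2J2*, 51.0% for *GSTA4*, 35.6% for *CYP2D6* and 35.3% for *CES3*. The orders and percentages rest on the deposited transcript lengths, such as 708 bases for *ALDH1A1* and 2035 for *CES3*. Whether these transcripts are complete was not tested. Among wild-type piglets the SD of log2 CPM was 1.43 for *GSTA1*, 0.95 for *CYP2D6* and 0.77 for *GSTA4*, where the median of all transcripts was 0.24. *CES3* alone of the 7 was below that median, at 0.21. Among CNV/CNV piglets the SD of *CYP2J2* was 2.31, above that of 99.7% of all transcripts, whose median was 0.27.

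A pair of members and 2 pairs of a member with another listed gene had listed spans that lay close together or were the same. Their ratios per library were compared. Whether other genes lie between them was not examined. The listed spans of *GSTA1* and *GSTA4* lie 18083 bases apart. The ratio of *GSTA1* to *GSTA4* in RPKM was 6.77 and 5.09 in 6161ST and 6165ST, 2.72 in 6407 and 1.95 to 3.11 in the CNV/CNV piglets, so that both genes were high in the same libraries but *GSTA1* by more. *CYP2J34* (ENSSSCT00000026469), a pig gene of the same P450 subfamily, has the same listed span as *CYP2J2*. *CYP2J34* had 3.41, 10.2 and 7.13 RPKM in 6161ST, 6165ST and 6407 and 1.77, 4.09 and 2.30 RPKM in 6185STQ, 6415 and 6434. The ratio of *CYP2J2* to *CYP2J34* was 1.63 to 2.20 in 5 libraries and 0.200 in 6185STQ, where *CYP2J2* was far lower and *CYP2J34* was at 1.77 RPKM against 2.30 RPKM in the next lowest library. Only uniquely mapped reads were counted, so reads that fit both of such close copies may have been left out. The levels of both are uncertain to that degree. The same may hold for *GSTA1* and *GSTA4*, and for *MT3* and the Metallothionein gene described next, which was not examined. The gene listed as Metallothionein (ENSSSCT00000029094), at RefSeq *MT1A* and LOC102166944, starts 24511 bases after *MT3*. The ratio of *MT3* to it was only 1.63 and 2.39 in 6161ST and 6165ST, and was 26.1 in 6407, 34.7 in 6185STQ, 111 in 6415 and 21.2 in 6434. These ratios are imprecise outside 6161ST and 6165ST, since the Metallothionein transcript had 9 reads in 6407, 6 in 6185STQ, 3 in 6415 (exact Poisson 95% interval 0.619 to 8.77, counting error only) and 18 in 6434. The level of *MT3* differed 3.11-fold over the libraries.

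**Figure D3:**
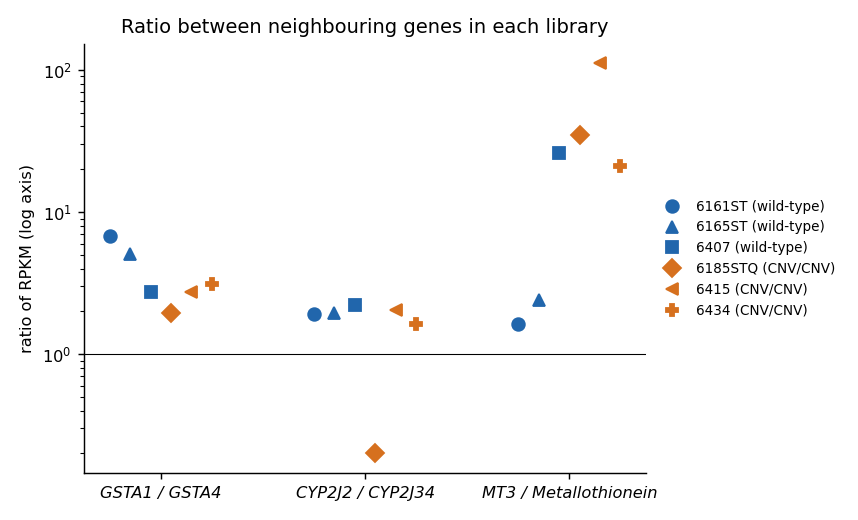
Ratio of RPKM between detoxification genes with close or shared listed spans in each library, on a logarithmic axis, in blue for wild-type and in orange for CNV/CNV piglets. The ratio of CYP2J2 to CYP2J34 is 0.200 in 6185STQ and 1.63 to 2.20 in the other 5 libraries, and that of MT3 to Metallothionein is lowest in 6161ST (1.63) and 6165ST (2.39).

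A fixed set of 9 more detoxification genes was taken from the study's list, which rests on the same contrast. *CYP4X1*, *CYP4F2* and *SULT1C4* lay at RefSeq genes without the listed symbol (LOC100627093, LOC110259329 and LOC100623441). For *SLC7A11* no position was at hand. These symbols, too, stand for the transcripts as the list names them. All 9 passed the filter on low counts and had a fold change below 0, with a median log2 fold change of -1.22. In edgeR 0 of the 9 passed an adjusted p under 0.05 (0.00601% of all transcripts) and 6 had lower values at an unadjusted p under 0.05 (2.87% of all transcripts), and DESeq2 called 0 (0.174% of all transcripts). The choice of the genes on this contrast bears on these counts, and nothing is read from them. Without both 6161ST and 6165ST, 4 of the 9 were below 0 and the median was 0.13, where that of all transcripts was 0.01. The share of all transcripts below 0 in that fit is not given. The fold changes of *CYP2J34* (-1.34), *SULT1C4* (-0.96), *SLC7A11* (-1.07) and *ACSM3* (-0.07) stayed below 0.

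Among the oxidizing enzymes, *CYP4X1*, a cytochrome P450 gene, had 67.3 and 47.2 RPKM in 6161ST and 6165ST and 7.38 RPKM in 6407, against 8.34, 5.92 and 25.3 RPKM in 6185STQ, 6415 and 6434. *CYP4F2*, whose human namesake hydroxylates fatty acids, had 3.58 and 3.20 RPKM in 6161ST and 6165ST. It had 0.175 RPKM in 6407, within the 0.136 to 0.613 RPKM of the CNV/CNV piglets. These low values rested on 13 reads in 6407 and 10 to 44 reads in the CNV/CNV piglets. *FMO5*, a flavin monooxygenase gene, had 13.7 and 11.4 RPKM in 6161ST and 6165ST and 1.42 RPKM in 6407. It ranged from 1.17 to 7.76 RPKM in CNV/CNV piglets. In all 3 genes 6407 was at the level of the CNV/CNV piglets. Among genes of conjugation, *GLYATL2*, a glycine acyltransferase gene, was at 77.4 and 29.6 RPKM in 6161ST and 6165ST and at 1.68 RPKM in 6407, below all CNV/CNV piglets (3.02 to 25.9 RPKM). *ACSM3*, which activates medium-chain fatty acids, had 5.84, 6.22 and 2.45 RPKM in 6161ST, 6165ST and 6407 and 2.15 to 2.39 RPKM in CNV/CNV piglets. *SULT1C4*, a sulfotransferase gene, went otherwise: with 20.5, 16.8 and 15.5 RPKM in 6161ST, 6165ST and 6407 the wild-type piglets were close to each other and above the 4.05 to 9.89 RPKM of CNV/CNV piglets. The same held for *SLC7A11*, which imports cystine for glutathione synthesis, with 2.84 to 3.58 RPKM in wild-type and 0.794 to 1.78 RPKM in CNV/CNV piglets. The Metallothionein transcript had 29.7 and 19.2 RPKM in 6161ST and 6165ST, 0.599 RPKM in 6407 and 0.202 to 1.24 RPKM in CNV/CNV piglets. Besides *ALDH1A1*, the list holds 2 retinoid carriers, of which *RBP4* had 3.70 to 8.58 RPKM in wild-type and 1.62 to 3.43 RPKM in CNV/CNV piglets. *RBP5* had 5.28 to 11.5 and 2.70 to 5.90 RPKM. The groups overlapped for *RBP5* on RPKM, and for both carriers on the TMM-normalized scale.

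**Figure D4:**
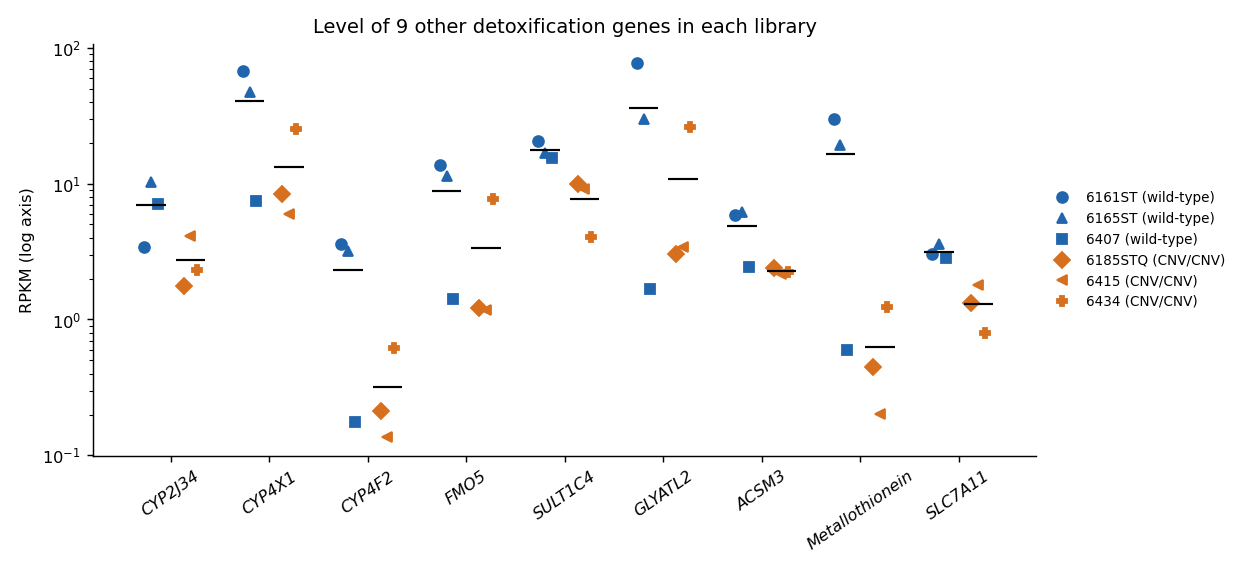
Levels of the 9 other detoxification genes by library, as RPKM on a logarithmic axis, with colours and bars (means, n = 3) for wild-type (blue) and CNV/CNV (orange) piglets. For CYP4X1, CYP4F2, FMO5, GLYATL2 and Metallothionein the wild-type piglet 6407 lies among or below the CNV/CNV piglets, while for SULT1C4 (15.5 RPKM) and SLC7A11 (2.84 RPKM) it lies above them.

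Both 6161ST and 6165ST were above the other 4 libraries in 5 of the 7 genes, all but *CYP2J2* and *CES3*, and in 8 of the 9 other genes, all but *CYP2J34*. Over all transcripts tested this held for 23.9%. Marker lists of cell types, whose genes the study had also chosen on the contrast of genotypes, moved with this pair of libraries. The summed level of 4 of 5 genes of sebaceous and lipid synthesis found in the tables was 98.3 and 92.0 RPKM in 6161ST and 6165ST, 32.1 RPKM in 6407 and 20.8 to 30.9 RPKM in CNV/CNV piglets. The 11 hair shaft genes summed to 2480 and 5020 RPKM in 6161ST and 6165ST, 1330 RPKM in 6407 and 896 to 1360 RPKM in CNV/CNV piglets, and the 8 genes of pigment cells to 245, 294 and 160 RPKM and to 88.2 to 160 RPKM. Among CNV/CNV piglets the genes of gland and simple epithelium were highest in 6434 (364 RPKM). This was also the highest CNV/CNV piglet for *CYP4X1*, *CYP4F2*, *FMO5*, *GLYATL2* and Metallothionein. It was the lowest for *SULT1C4* (4.05 RPKM) and *SLC7A11* (0.794 RPKM), and *CYP2J34* and *ACSM3* were highest in another CNV/CNV piglet. None of the genes found in these 4 lists was at 0 in any library. Interferon-stimulated genes were high in 6161ST alone (319 RPKM summed over 8 transcripts, against 24.2 to 46.3 in the other libraries), and *DDX58* and *OASL* had transcripts at 0 in some libraries. The blood gene *ALAS2* was at 0.175 to 1.15 RPKM, and *HBB* was not analysed here. The part of these lists in the levels of the detoxification genes was not tested.

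**Figure D5:**
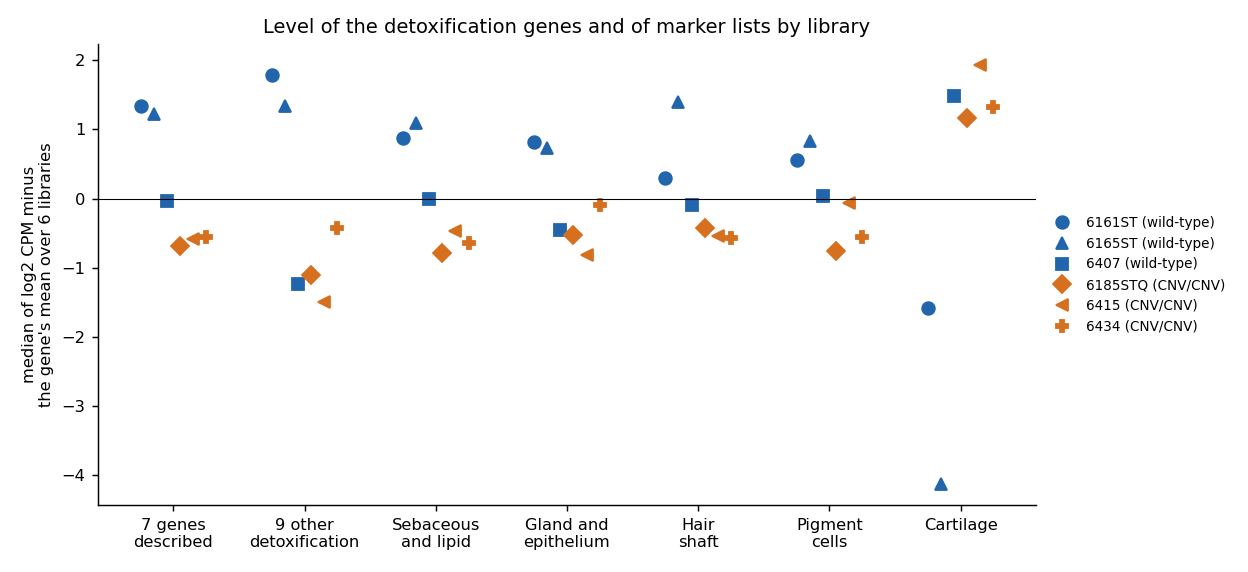
Level of the 7 genes described, of the 9 other detoxification genes and of 5 marker lists in each library, as the median over genes of log2 CPM minus the gene's mean over the 6 libraries. The 7 genes lie at 1.34 in 6161ST, 1.22 in 6165ST and -0.03 in 6407 and from -0.68 to -0.55 in the CNV/CNV piglets, while cartilage lies at -1.58 and -4.13 in 6161ST and 6165ST and at 1.48 in 6407.

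For each of the 7 genes, the named transcripts with the most similar course over the 6 libraries were picked by Pearson's r of log2 CPM out of the 240 others tested from the study's list. All of these had been chosen by the study on the same contrast of the same piglets, so that high values of r among them are largely fixed by that choice. The values given are the highest of many values over 6 libraries of which 2 stand apart, and are given without a test. The course of *GSTA1* was most like those of *ATP13A4* (r = 0.982) and the lipoxygenase gene *ALOX15B* (0.974), and that of *GSTA4* most like those of the serine protease gene *PRSS33* (0.979) and *GSTA1* (0.956). *CYP2D6* was closest to *ZDHHC21* (0.983) and *MYO5C* (0.981). *CYP2J2*, lowest in 6185STQ, was closest to *TUSC5* (0.970) and *ANO3* (0.946), which had their lowest level in that library too, at 1.45 and 0.624 RPKM. *CES3* was closest to *CSTF3* (0.946) and *GRM4* (0.931). *ALDH1A1* was closest to *ACSM3* (0.983) and Metallothionein (0.963), and *MT3* to *TOPAZ1* (0.964) and *ST6GALNAC1* (0.930).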

How the data were processed

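Polyadenylated RNA from ear tissue of 6 piglets was sequenced by the authors, 1 library each. The deposited counts are uniquely mapped reads per Ensembl transcript, and the authors derived the deposited RPKM from them by transcript length and library total (recomputed values were equal within a relative tolerance of 0.001 for 100% of transcripts). The deposited coverage is the percent of the transcript's length with a read. The article names TopHat and Sscrofa 11.1, the submitters' processing notes Bowtie2, TopHat, Cuffdiff and Sscrofa 10.2; the build behind the counts is therefore open, and strand use is not given in the sources used here. A transcript not listed was set to 0. Genotypes were compared in R 4.3.3 with edgeR 4.0.16 on the counts (filterByExpr, TMM, glmQLFit, glmQLFTest, genotype as the only term) with Benjamini-Hochberg adjustment over 16645 transcripts, and standard errors were derived from the F value. For log2 CPM the prior count was 2. The scripts were tested on simulated data. Alternatives used DESeq2 1.42.0, other normalizations, no filter, limma 3.58.1 on log2 RPKM with pseudocounts of 1 and 0.1, a term for the letters ST and leaving out libraries. Nothing in the labels ties piglets to litters or days. The p-values treat the 3 and 3 piglets as independent, which could not be checked from the labels. Names and positions came from the study's list, whose measured columns (the authors' FPKM, fold changes and q-values) were not used; of its 280 identifiers 264 were in the tables. The gene tables at hand matched 0 transcript identifiers, and RefSeq genes were compared by position on Sscrofa 11.1. The members and gene lists were chosen with earlier results of these data known. Genes named are the members, the 9 other detoxification genes, 2 retinoid carriers, the marker lists and, per member, the 2 most similar of the named transcripts.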

Additional observations from a re-analysis of the deposited data

How the results depend on the processing

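The median log2 fold change of the 7 genes was -1.48 and lay between -1.54 and -1.10 under the other tests, normalizations, filters, pseudocounts and the ST term, and between -1.78 and -1.10 when 1 library was left out. With the ST term the fold change was -2.86 instead of -1.64 for *CYP2J2*, -0.79 instead of -1.42 for *ALDH1A1* and -0.37 instead of -0.62 for *MT3*. In an alternative chosen after seeing the data, without both 6161ST and 6165ST, it was -0.76, and the fold change changed sign for *ALDH1A1* (0.29), *MT3* (0.51), *CYP4X1* (0.89), *CYP4F2* (0.93), *FMO5* (1.32), *GLYATL2* (2.74) and Metallothionein (0.13); fewer samples enter that fit, and the cause was not tested. The number of transcripts past an adjusted p of 0.05 was 1 in edgeR, 29 in DESeq2, 3 without a filter, 2 and 4 in limma with pseudocounts of 1 and 0.1, 2 with the ST term, 0 to 6 when 1 library was left out and 0 without both 6161ST and 6165ST. Of the 7 genes, 0 passed in edgeR, 2 in DESeq2 and 0 to 1 when 1 library was left out. Those calls were *CYP2D6* (adjusted p = 0.00173 from DESeq2), *CES3* (adjusted p = 0.0302 from DESeq2) and *ALDH1A1* (adjusted p = 0.0137 from edgeR without 6407). Each was called in that setting only, and in edgeR on all 6 libraries the adjusted p of each was 0.864. In limma with a pseudocount of 0.1 the median of all transcripts was -0.13, and the -1.54 of the 7 genes stands against that shift. No paired analysis was possible because the labels give no replicate numbers that the genotypes share. Each genotype had 3 piglets. The fold change of 5 of the 7 genes moved by more than 1.5 times or changed sign without 6161ST and 6165ST. Counts of 10 and 21 reads in 6185STQ limit the values of *CYP2D6* and *CYP2J2*. Low counts in 6407 also limit the sign changes of *CYP4F2* (13 reads) and Metallothionein (9 reads).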
